A study of Mus musculus with 16 samples.

Results

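The cytosolic ribosomal protein genes were examined in cells laser-captured from the embryonic mouse cortex as migrating GABAergic cells. Members were chosen by symbol alone: every row of the count table whose symbol begins with Rps or Rpl and a number, with a closing a, l or x allowed, together with Rpsa, Rplp0, Rplp1 and Rplp2. Numbered pseudogene symbols with -ps and the Rps6k kinases were left out. This gave 85 of the 24539 genes in the table, of which 31 encode proteins of the small 40S subunit, 43 proteins of the large 60S subunit and 3 the P stalk, while 8 are paralogs or gene copies (Rpl3l, Rpl7l1, Rpl10l, Rpl22l1, Rpl32l, Rpl39l, Rps4l and Rps27l). Of the 85, 78 had enough counts to be tested and 7 did not.

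The animals were GAD67-GFP+/- CD1 embryos of embryonic day 14.5, each recorded as male, 1 per litter, in 4 groups of 4. The cypermethrin non-stressed group came from dams gavaged with alpha-cypermethrin, a pyrethroid insecticide, at 10 mg/kg on gestational days 11 to 14. The vehicle stressed group came from dams given corn oil and restrained under bright light in 3 sessions of 45 min on each of days 12 and 13 and once on day 14. The cypermethrin stressed group had both exposures, and the vehicle non-stressed group had corn oil without restraint. In all groups the last gavage came 90 min before euthanasia, and the last restraint ended 15 min before it in the stressed groups. All embryos carry the reporter, which marks cells that make GAD67, so the captured population is defined by GFP and position. About 1000 cells were pooled per embryo from fixed tissue.

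Each ribosome has a small subunit, which reads the mRNA, and a large subunit, which joins amino acids, and each subunit holds a fixed set of proteins around its ribosomal RNA. Because nearly all of these proteins are needed in equal numbers, their mRNAs are made together at high levels, and many begin with a run of pyrimidines (a terminal oligopyrimidine or TOP tract) through which mTORC1 signalling controls their translation. Migrating interneurons make protein for growing processes, which needs ribosomes. In bulk samples, a change in the kinds of cells captured and a change in RNA per cell cannot be told apart.

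Total counts ran from 2291283 to 4324129 per library, and levels are given as CPM, the usual unit of counts relative to library size, here after TMM scaling. Markers of cortical interneurons were detected in every library (14 of 14), with a summed level of 1544 to 2536 CPM. Those of glutamatergic neurons summed to more, 4496 to 7563 CPM. Markers of Cajal-Retzius cells, mostly Reln, summed to 1748 to 3376 CPM, and those of pericytes and meningeal fibroblasts to 1378 to 4036 CPM. The captured material thus held high levels of markers of other cell types, and its composition was not tested. The library labelled vehicle stressed replicate 1 had 9521 counts of Xist, a transcript of the inactive X chromosome in female cells, against at most 26 in each of the other 15 libraries, although its label gives male. It also had the fewest detected genes (12153, against 13158 to 16536). It is called the Xist-positive library here, and values without it are given beside some of the results that rest on it.

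Several core ribosomal protein genes were at or near 0. Rpl26 had 0 counts in all 16 libraries, and Rpl30, Rps27 and Rpl34 had 1 count each over all 16, although each is a standard part of the ribosome. The remaining untested members were the paralogs Rpl10l with 0 counts, Rpl3l with 13 and Rpl39l with 58. In the mouse, Rpl10l and Rpl39l are known from male germ cells and Rpl3l from muscle. The mRNAs of the 4 near-absent core genes share stretches of 50 identical bases with another gene of the table. Such stretches make up 60.6% of the Rpl26 windows (with Gm15772), 47.8% of those of Rpl30 (with Gm12191), 98.6% of those of Rps27 (with Rps27rt) and 50.6% of those of Rpl34 (with Rpl34-ps1), and these 4 partners also had 0 counts. The shared stretches below lie within the coding sequence and are shown because a read inside them matches both genes. Each is a 50-base window of the GENCODE vM21 transcript (GRCm38), in the direction of the mRNA, with no capitals since every base is identical in both genes.
Rpl26: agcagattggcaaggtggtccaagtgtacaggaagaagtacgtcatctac
Rpl30: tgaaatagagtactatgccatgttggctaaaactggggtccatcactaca
Rps27: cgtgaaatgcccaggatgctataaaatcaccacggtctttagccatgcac
Rpl34: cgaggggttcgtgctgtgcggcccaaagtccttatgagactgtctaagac
These genes lie on chromosome 11 from 68901583 to 68906989, on chromosome 15 from 34440505 to 34443640, on chromosome 3 from 90212522 to 90213651 and on chromosome 3 from 130726831 to 130730398, all annotated as protein coding. Counting partners in the table alone, some members with shares near those of Rpl26, Rpl30 and Rpl34 had many counts, while none came near the share of Rps27. Counting any annotated gene, Rpl10 shared 92.1% of its windows, against 98.6% for Rps27, and had 347 to 740 CPM. The next shares are again those with a gene of the table. Rpl14 shared 49.3% of its windows with Rpl14-ps1 and had 12785 counts, Rpl22l1 shared 51.9% with Gm15421 and had 7184, and Rplp2 shared 65.1% with Wdr89 and had 18667. The way reads matching several genes were counted is not given in the sources used here and was not tested, so 0 counts are not read as absence of the mRNA. Over all members, the median share of windows found in some other annotated gene was 53.5%, and 38 of the 85 overlap another gene of the table in position. The overlap covers whole gene spans on either strand, including small RNA genes such as Snora70 at Rpl10. It does not measure how uncertain the counts are. Reads that match several genes leave the counts uncertain by an amount that was not tested.

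The windows around the annotated starts of 4 members are shown because each holds a TOP tract, the motif CCGGAA on either strand, or both. Promoters come from the RefSeq table for GRCm38.p6, which matched 64 of the 85 members. Each window runs in the direction of the gene, with 40 bases before the start and 20 from it, and capitals mark a TOP tract beginning at the start and the motif CCGGAA or its complement TTCCGG, which is the core recognised by ETS-family factors.
Rps6 (chr4:86857348-86857407, minus strand): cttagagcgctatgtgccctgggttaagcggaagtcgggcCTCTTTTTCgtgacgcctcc
Rps27 (chr3:90213629-90213688, minus strand): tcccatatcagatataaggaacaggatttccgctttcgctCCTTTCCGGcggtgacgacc
Rps27l (chr9:66946046-66946105, plus strand): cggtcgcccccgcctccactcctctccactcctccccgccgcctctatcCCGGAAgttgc
Rpl26 (chr11:68901526-68901585, plus strand): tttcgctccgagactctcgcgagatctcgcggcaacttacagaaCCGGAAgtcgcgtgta
Rps6 and Rps27 start on a TOP tract, and in Rps27 it runs into the TTCCGG motif. Rps27l and Rpl26 hold CCGGAA within the 20 bases from the start and no TOP tract at it. The tract was sought only at the start annotated in RefSeq, here and in the shares below, so a start placed a few bases off would miss it. For Rpl26 the window ends at 68901585, while the GENCODE gene begins at 68901583. Whole windows ran 250 bases before and 50 after the start. CCGGAA on either strand was held by 54.7% of the 64 members, against 16.7% of 27025 genes. A gene was counted, here and below, if any of its annotated promoters held the sequence. A C followed by 4 bases that were each C or T stood at the start in 21.9% of members, against 3.01% of the 27025 genes. CTTTC on the gene's strand, from 20 bases before to 30 after the start, was present in 34.4% and 7.66%, and these tracts can overlap. AAGATGG on either strand was present in 15.6% of members and 7.28% of all, and TATAAA from 40 to 20 bases before the start in 1.56% and 2.25%.

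The tested members spanned a wide range of levels per length, and the high end was held by small proteins of both subunits. Levels between genes are compared as CPM per kb of mRNA. Rpl41, the smallest ribosomal protein, had a median of 2167 CPM per kb over the 16 libraries (1667 to 2910). Rps24, of the 40S subunit, had 1970 (1249 to 2953), and Rpl31, near the exit of the 60S tunnel, had 1941 (1381 to 2655). Rps29 followed with 1681 (1368 to 2861) and Rps15a with 1439 (958 to 2069), both of the 40S subunit. The ranges of these 5 neighbours over libraries overlap. All 5 were measured in the same libraries, so the overlap does not settle their order, and their order within each library was not tested. With the longest principal transcript in place of the shortest, Rps24 moved to place 26 and Rps15a to place 68, while Rps29 and Rpl41 took places 1 and 2.

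**Figure D1:**
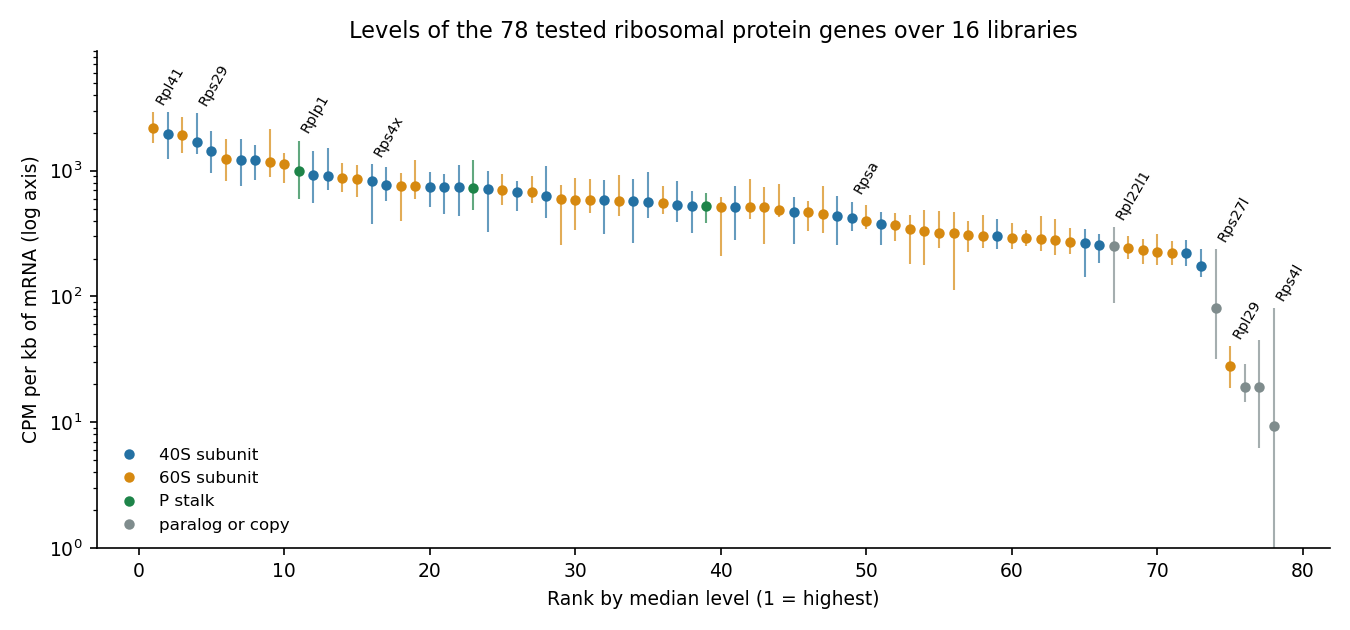
Each point is the median level of 1 tested gene in CPM per kb of mRNA (log axis) and each line its range over 16 libraries, ordered by rank and coloured by role. The highest median is 2167 CPM per kb (Rpl41), and the lowest places hold Rps27l, Rpl29, Rpl32l, Rpl7l1 and Rps4l, the last with 0 in 1 library and its line drawn down to the axis.

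At the low end, among members detected in every library, were Rpl7l1 with a median of 18.9 CPM per kb, Rpl32l with 19.1, Rpl29 with 27.7, Rps27l with 81.3 and Rps20 with 175. Rpl7l1 and Rps27l are paralogs of core genes, and Rpl32l is annotated as a processed pseudogene lying within Map7. Rpl29, a core 60S protein, had 894 counts in all, and 78.5% of its windows occur in 82 other annotated genes. The length used for Rps20 was 3706 bases, the longest of any member. Its median was 650 CPM before division by length. Rps4l, a transcribed processed pseudogene within Tmtc1, was lowest with 9.37 CPM per kb and was at 0 in 1 library.

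Of the 40S proteins fixed by role, all but Rps27 were detected in every library. Rpsa, the laminin receptor homologue, had a median of 678 CPM (528 to 905 over 16 libraries). Rps6, the substrate of the S6 kinases, had a median of 227 CPM (161 to 274 over 16 libraries). Rps3, at the mRNA entry, had 423 CPM (332 to 534), and Rps19, a gene mutated in human Diamond-Blackfan anaemia, had 338 CPM (249 to 528). Rps14, lost in the human 5q- syndrome, had 260 CPM (152 to 375). Rps25, which some viral internal ribosome entry sites need, had 329 CPM (155 to 494). Its coefficient of variation was 28.3%, beside 14.3% for Rps6 and 13.2% for Rps3. Rps27a, made as a fusion with ubiquitin, had 455 CPM (207 to 635), and the X-linked Rps4x had 813 CPM (364 to 1104). For Rps4x, Rps25, Rps27a and Rps6 the lowest library was the same, cypermethrin non-stressed replicate 4.

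Among 60S proteins, Rpl5 and Rpl11, which with 5S rRNA bind Mdm2, had medians of 481 CPM (369 to 582) and 560 CPM (459 to 762). Rpl3, near the peptidyl transferase centre, had 328 CPM (268 to 408). Rpl7 had 597 CPM (245 to 721) and Rpl10, a late-joining protein, 456 CPM (347 to 740). Rpl38, which mouse embryos need for normal Hox mRNA translation, had 408 CPM (306 to 735), with its highest value in the Xist-positive library. Rpl39, in the exit tunnel, had 762 CPM (505 to 1098) and Rpl22, an RNA-binding protein, 279 CPM (160 to 415). The P stalk recruits elongation factors, and of its parts Rplp0, the base, had 705 CPM (519 to 896), Rplp1 500 CPM (298 to 864) and Rplp2 306 CPM (204 to 515).

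The tested paralogs differed in how much they varied. Rps27l, a p53-inducible paralog of Rps27, had 39.3, 52.7, 119 and 15.9 CPM in cypermethrin non-stressed libraries, 105, 47.3, 29.6 and 40.8 in vehicle stressed, 33.2, 38.5, 38.9 and 58.3 in cypermethrin stressed, and 20.2, 40.3, 55.0 and 67.9 in vehicle non-stressed. The groups overlap, and the lowest and the highest value both belong to the cypermethrin non-stressed group. Rpl22l1, which can take the place of Rpl22, ranged from 46.2 to 187 CPM and Rpl7l1, a nucleolar assembly protein, from 8.09 to 58.9 CPM. The coefficient of variation over 16 libraries was 55.1% for Rps27l, 51.1% for Rpl7l1 and 136% for Rps4l, but 29.7% for Rpl22l1 and 23.9% for Rpl32l, beside a median of 50.6% over all genes tested. The 73 members above 100 CPM had a median of 18.5%, against 23.4% for the 2246 other genes above that level, and 34 of the 73 lay in the first quartile of all genes above that level. The most even members were Rpl12 with 8.05% and Rpl3 with 11.2%, and the least even of the 73 was Rplp1 with 30.4%. The 78 tested mitochondrial ribosomal protein genes, all at lower levels, had a median of 49.1%.

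The members moved up and down together across libraries, and the widest span was inside 1 group. Their share of all counts was 3.29%, 3.99%, 3.91% and 2.36% in the cypermethrin non-stressed libraries. It was 2.92%, 3.41%, 2.99% and 3.29% in vehicle stressed, 3.67%, 3.62%, 3.08% and 3.42% in cypermethrin stressed, and 3.02%, 3.60%, 3.57% and 3.11% in vehicle non-stressed libraries. The cypermethrin non-stressed group thus holds the highest and the lowest library, and all groups overlap. The mean was 3.39% ± 0.755 in cypermethrin non-stressed, 3.15% ± 0.235 in vehicle stressed, 3.45% ± 0.270 in cypermethrin stressed and 3.32% ± 0.302 in vehicle non-stressed libraries (SD, n = 4 each). These shares use library totals without TMM scaling. As summed CPM, the means in the same order were 34733 ± 7870, 32388 ± 1100, 34082 ± 4428 and 32372 ± 2683. The order of the group means thus depends on the scaling.

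**Figure D2:**
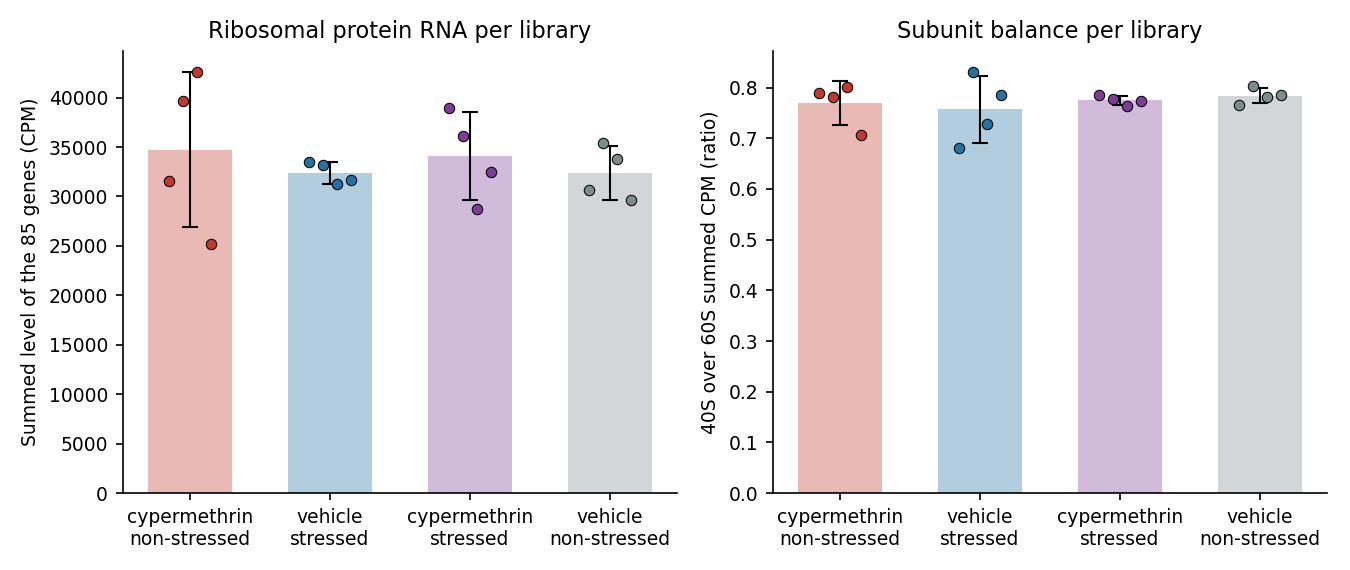
Bars are group means of the summed CPM of the 85 genes and of the ratio of 40S to 60S summed CPM, points are the 4 libraries of each group, and error bars are SD. Cypermethrin non-stressed libraries span 25209 to 42558 CPM, wider than the other 3 groups, while the ratio stays between 0.68 and 0.83 in all libraries.

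Single genes followed the same libraries. Of the 78 tested members, 73 were above their own median over libraries in cypermethrin non-stressed replicate 2 and 68 in replicate 3, but 12 in replicate 4 and 21 in replicate 1 of that group. In the cypermethrin stressed group the counts were 61, 63, 10 and 32. Cypermethrin non-stressed replicate 4 held the lowest value of 37 members and replicate 3 the highest of 28, while cypermethrin stressed replicate 1 held the highest of 21. Other features of these libraries are given beside the members. Among 108 other genes above 100 CPM with an mRNA under 1000 bases, the median deviation from the gene's own median was 0.13 on the log2 scale in cypermethrin non-stressed replicate 3 and -0.11 in replicate 4, where the members stood at 0.31 and -0.38. The short genes and the members did not deviate alike in every library. In the Xist-positive library the short genes stood at 0.13 and the members at 0.02. In cypermethrin stressed replicate 3 they stood at -0.03 and -0.20. Cypermethrin non-stressed replicate 4 had the lowest total count of all libraries and the highest summed interneuron markers (2536 CPM). Its glutamatergic markers were also high, with a sum of 6538 CPM, below only the Xist-positive library (7563 CPM). Among 1405 other genes above 100 CPM with an mRNA of at least 3000 bases, its median deviation was 0.16, the highest of all libraries. Cypermethrin non-stressed replicate 3 had the highest summed markers of macrophages, of endothelial cells and of pericytes and meningeal fibroblasts. Replicate 2 of that group, with the highest share of member counts, did not stand out in them. The 8 macrophage markers, all tested, summed to 443 CPM in replicate 3, 76.7, 79.6 and 37.8 CPM in replicates 1, 2 and 4, 99.4 to 194 in vehicle stressed, 119 to 175 in cypermethrin stressed and 42.8 to 153 in vehicle non-stressed libraries. The 7 endothelial markers, all tested, summed to 501 CPM in replicate 3, 215, 239 and 112 CPM in replicates 1, 2 and 4, 156 to 360 in vehicle stressed, 301 to 343 in cypermethrin stressed and 234 to 326 in vehicle non-stressed libraries. The 10 markers of pericytes and meningeal fibroblasts, all tested, summed to 4036 CPM in replicate 3, 1749, 2042 and 3105 CPM in replicates 1, 2 and 4, 1378 to 2329 in vehicle stressed, 2050 to 2839 in cypermethrin stressed and 1398 to 3630 in vehicle non-stressed libraries. Their part in the ribosomal protein levels was not tested.

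**Figure D3:**
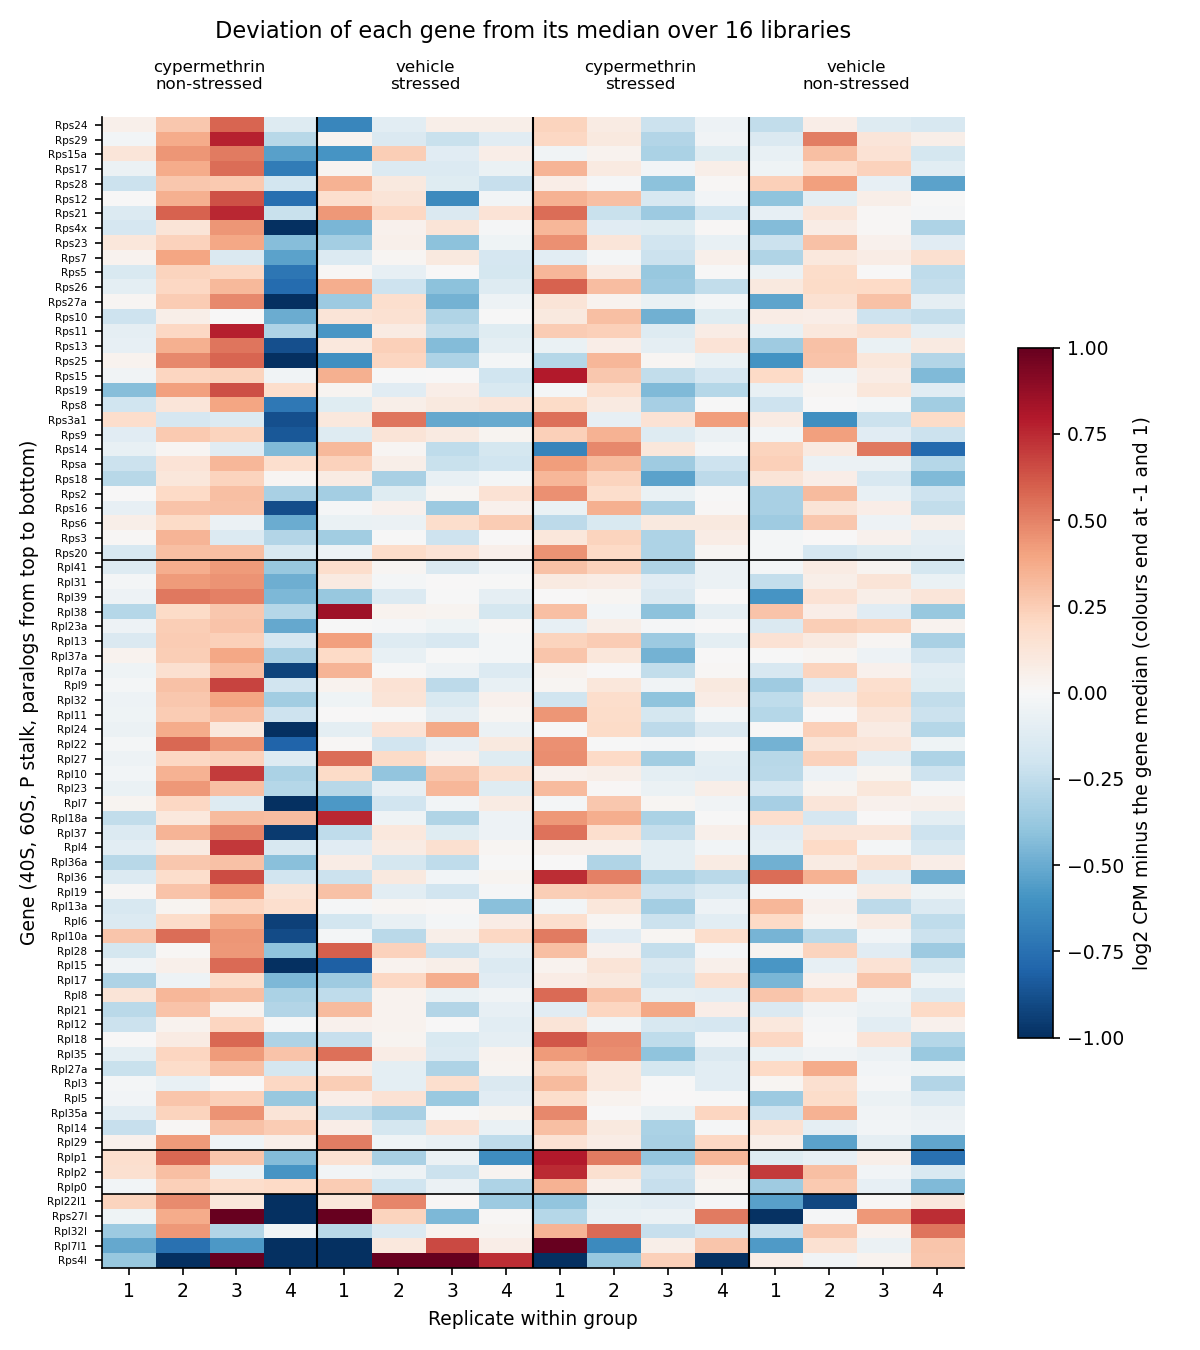
Each cell is the log2 CPM of 1 tested gene in 1 library minus the gene's median over 16 libraries, with genes ordered by role and libraries by group. Whole columns share a colour: cypermethrin non-stressed replicates 2 and 3 are mostly above the median (73 and 68 of 78 genes) and replicate 4 mostly below it (12 of 78 above).

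The balance of the subunits overlapped between all groups. The 40S sum over the 60S sum was 0.769 ± 0.0430 in cypermethrin non-stressed, 0.757 ± 0.0654 in vehicle stressed, 0.775 ± 0.00871 in cypermethrin stressed and 0.784 ± 0.0153 in vehicle non-stressed libraries (SD, n = 4 each). The lowest ratio was in the Xist-positive library (0.682) and the next in cypermethrin non-stressed replicate 4 (0.706). Vehicle stressed replicates 2, 3 and 4 had 0.831, 0.729 and 0.786, so the low mean of that group rests in part on the Xist-positive library.

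Cypermethrin alone was set against vehicle, both without stress. With edgeR's quasi-likelihood test and Benjamini-Hochberg adjustment, 0 of 78 members were called, as were 0% of all 13224 genes tested, and 0 members had an unadjusted p under 0.05 (3.71% of all genes). DESeq2 also called 0 members. No member had groups that did not overlap (1.19% of all genes were higher and 1.32% lower without overlap). The fitted difference was higher for 59 of 78 members (75.6%, against 52.4% of all genes), with a median log2 difference of 0.10 for members and 0.03 for all genes. The count depended on single libraries. Without cypermethrin non-stressed replicate 3 it was 37 of 79 members (median -0.01), without replicate 4 it was 71 of 79 (median 0.24), and without replicate 2 it was 46 of 79. It also changed with the scaling, to 42 of 78 when libraries were scaled by their totals alone. A code in the library descriptions splits the libraries into 7 and 9. Within the 7, which hold 1 cypermethrin non-stressed library, the count was 28 of 79 members (median -0.11) and within the 9 it was 62 of 78 (median 0.17). Scaling and the choice of libraries move the fitted values of all genes too. Counts under alternative settings, here and below, are given without the share of all genes. They are not read as particular to the members.

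Rps24, a 40S protein, had the smallest p here. It had 955, 1110, 1382 and 842 CPM in cypermethrin non-stressed libraries, against 777, 965, 841 and 824 in vehicle non-stressed libraries, so 2 of the 4 cypermethrin libraries exceeded every vehicle library. The log2 difference was 0.33 ± 0.17 (SE; edgeR, adjusted p = 0.999), and 0.19 without cypermethrin non-stressed replicate 3. Rpl10a, of the L1 stalk of the 60S subunit, had 335, 407, 374 and 148 CPM, against 199, 228, 270 and 237 CPM. It was higher in 3 of 4 cypermethrin libraries and lowest of all in replicate 4, with a log2 difference of 0.44 ± 0.23 (edgeR, adjusted p = 0.999). This was 0.29 without replicate 2 and 0.68 without replicate 4. Rpl9, another 60S protein, had a difference of 0.32 ± 0.17 (edgeR, adjusted p = 0.999), which was 0.14 without cypermethrin non-stressed replicate 3. The paralog Rpl7l1 had 17.2, 14.5, 16.5 and 11.2 CPM with cypermethrin, against 16.5, 27.5, 23.7 and 30.1 CPM with vehicle. It was the lowest member by log2 difference, at -0.72.

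Stress alone was set against no stress, both with vehicle. By edgeR, 0 of 78 members were called (0% of all genes), and 0 had an unadjusted p under 0.05 (5.08% of all genes). DESeq2 called 0 members. No member had non-overlapping groups (1.23% of all genes higher, 1.66% lower). Of the members, 42 of 78 had a higher fitted value (53.8%, against 50.8% of all genes), with a median log2 difference of 0.01 in both. With library totals alone the count was 22 of 78, and without the Xist-positive library it was 33 of 79 (median -0.03). Rpl27, a 60S protein, had 530, 410, 373 and 330 CPM in vehicle stressed libraries, against 297, 423, 339 and 290 in vehicle non-stressed libraries. Its highest value is that of the Xist-positive library, and the difference of 0.28 ± 0.19 was 0.14 without it. Rps29 had 670, 593, 562 and 607 CPM in vehicle stressed libraries, against 593, 933, 715 and 683 in vehicle non-stressed libraries, a log2 difference of -0.27 ± 0.19, and -0.13 without vehicle non-stressed replicate 2. Rplp2 had 301, 296, 264 and 312 CPM, against 498, 378, 301 and 275 CPM, a difference of -0.31 ± 0.22, and -0.11 without vehicle non-stressed replicate 1. In both the groups overlap. The adjusted p by edgeR was 0.966 for Rpl27, 0.972 for Rps29 and 0.975 for Rplp2.

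Both exposures together were set against vehicle without stress, a comparison that shares its vehicle libraries with the previous ones. By edgeR 0 of 78 members were called (0% of all genes), and DESeq2 called 0. No member had non-overlapping groups (1.27% of all genes higher, 1.35% lower). A single member, Rplp1, had an unadjusted p under 0.05 (1.28% of members, 1.49% of all genes). Fitted values were higher for 56 of 78 members (71.8%, against 50.3% of all genes), with a median of 0.08 for members and 0.00 for all genes. Without cypermethrin stressed replicate 1 this was 40 of 79 (median 0.00). Within the 7 libraries of one code it was 61 of 79 and within the 9 of the other 25 of 78. Rplp1, whose protein dimerises with Rplp2 on the stalk, had 864, 717, 382 and 628 CPM in cypermethrin stressed libraries, against 460, 473, 522 and 298 in vehicle non-stressed libraries. It was above every vehicle library in 3 of 4, with a log2 difference of 0.56 ± 0.23 (edgeR, unadjusted p = 0.021, adjusted p = 1). Rpl10a and Rps3a1, of the 40S platform, had differences of 0.40 ± 0.23 and 0.39 ± 0.23 (edgeR, adjusted p = 1 each). Rpl10a had 0.27 without cypermethrin stressed replicate 1 and Rps3a1 0.25 without vehicle non-stressed replicate 2.

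The interaction asks whether cypermethrin differed in its effect with and without stress. By edgeR 0 of 78 members were called (0% of all genes) and 1 had an unadjusted p under 0.05 (4.7% of all genes); DESeq2 called 0. Higher fitted values were found for 33 of 78 (42.3%, against 47.4% of all genes), with medians of -0.03 for members and -0.04 for all genes, and library totals alone gave 54 of 78. The count was 19 of 79 without cypermethrin non-stressed replicate 4, 51 of 79 without replicate 3, 47 of 79 without replicate 2 and 39 of 79 without the Xist-positive library. Within the 7 libraries of one code it was 61 of 79 and within the 9 of the other 18 of 78. Rps4l had the smallest p and rests on 1 library. It had 0, 5.54, 8.83 and 2.24 CPM in cypermethrin stressed libraries and 3.33, 16.0, 22.8 and 12.7 in vehicle stressed libraries. It had 5.55, 2.78, 63.2 and 2.34 CPM in cypermethrin non-stressed libraries and 7.74, 7.21, 7.57 and 9.01 in vehicle non-stressed libraries. The interaction was -2.94 ± 1.39 (edgeR, unadjusted p = 0.0432, adjusted p = 0.985), and -0.59 without cypermethrin non-stressed replicate 3. Rplp2 had an interaction of 0.55 ± 0.31 and Rpl10 of -0.45 ± 0.27 (edgeR, adjusted p = 0.985 each). Rplp2 had 0.33 without cypermethrin stressed replicate 1, and Rpl10 had -0.26 without cypermethrin non-stressed replicate 3.

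**Figure D4:**
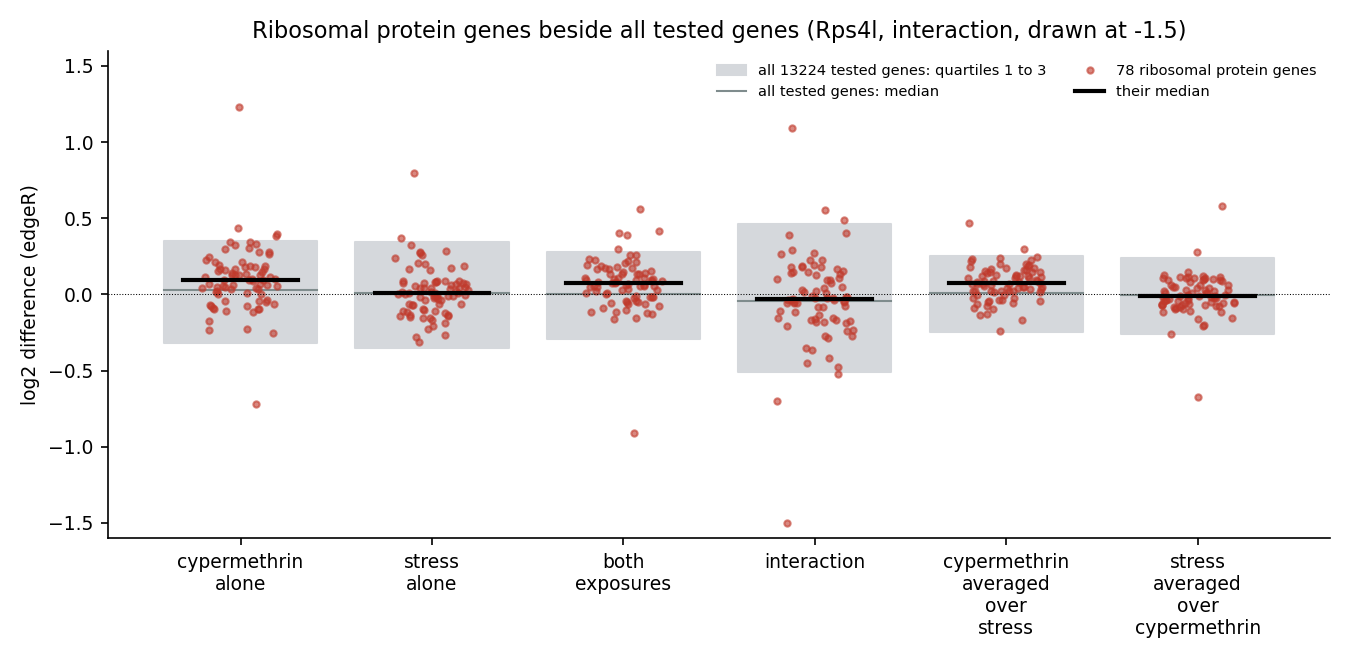
Red points are the log2 differences of the 78 tested genes in 6 comparisons, black lines their medians, grey boxes the interquartile range of all 13224 tested genes and grey lines the medians of those. Medians of the members lie between -0.03 and 0.10, and the widest values are those of Rps4l (-2.94 in the interaction, 1.23 for cypermethrin alone).

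Averaged over stress, cypermethrin was compared with vehicle using all 16 libraries. By edgeR 0 of 78 members were called (0% of all genes) and 1, Rplp1, had an unadjusted p under 0.05 (4.59% of all genes); DESeq2 called 0 members. Fitted values were higher for 60 of 78 members (76.9%, against 51.1% of all genes), with medians of 0.07 for members and 0.01 for all genes. This count was the same under all 3 scalings tried, and was 48 of 79 (median 0.01) without cypermethrin non-stressed replicate 3 and 68 of 79 (median 0.14) without replicate 4. Within the 2 codes it was 49 of 79 and 58 of 78. Without the Xist-positive library it was 62 of 79. By subunit, 24 of 30 tested 40S genes and 34 of 43 genes of the 60S subunit and stalk were fitted higher. The median standard error was 0.14 for members and 0.38 for all genes. These are errors of single genes and do not measure the uncertainty of the median difference of the members. The median deviation of the members in each library had an SD of 0.18 over the 16 libraries.

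Rplp1 had the smallest p of any member in this comparison. It had 562, 745, 607 and 370 CPM in cypermethrin non-stressed and 864, 717, 382 and 628 CPM in cypermethrin stressed libraries. The vehicle stressed libraries had 557, 399, 479 and 324 CPM and the vehicle non-stressed libraries 460, 473, 522 and 298 CPM. Of the 8 cypermethrin libraries 6 lay above all 8 vehicle libraries, and the other 2 lay inside the vehicle range. The log2 difference was 0.47 ± 0.16 (edgeR, unadjusted p = 0.0074, adjusted p = 0.981), and 0.39 to 0.56 when 1 library was left out. Rps24 had 0.24 ± 0.12 and Rpl10a 0.30 ± 0.16 (edgeR, adjusted p = 0.981 each). The partners in the stalk had smaller differences, with 0.20 for Rplp0. For Rplp2 the 8 cypermethrin libraries had 204 to 515 CPM and the 8 vehicle libraries 264 to 498 CPM.

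**Figure D5:**
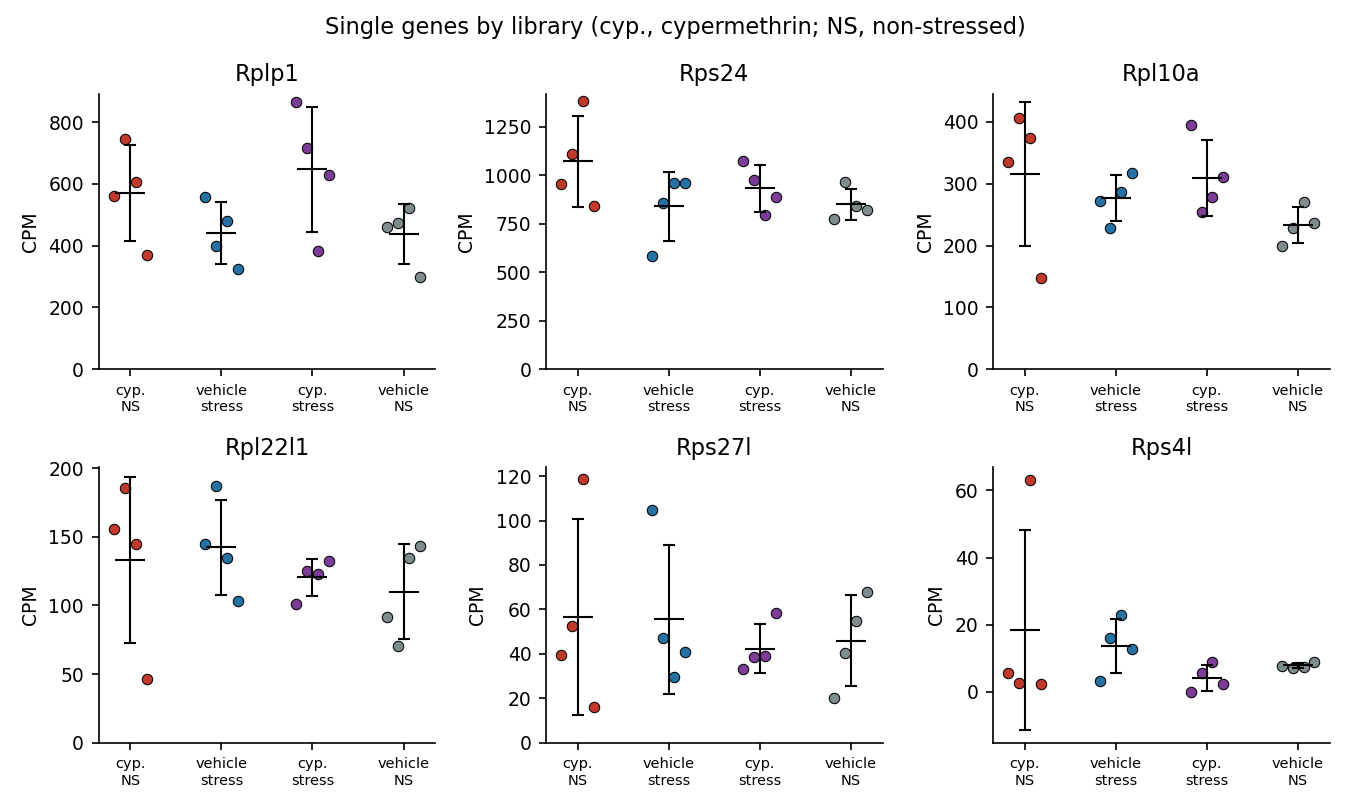
CPM of 6 genes in each library, with points for the 4 libraries of a group and the mean and SD in black. For Rplp1, 6 of 8 cypermethrin libraries lie above all vehicle libraries, and the highest Rps4l value (63.2 CPM) is 1 cypermethrin non-stressed library.

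Averaged over cypermethrin, stress was compared with no stress. By edgeR 0 of 78 members were called (0% of all genes), 0 had an unadjusted p under 0.05 (5.13% of all genes), and DESeq2 called 0 members. Higher fitted values were found for 35 of 78 (44.9%, against 50% of all genes), with medians of -0.01 for members and 0.00 for all genes. The 2 codes gave opposite counts, with 62 of 79 members higher (median 0.13) within the 7 libraries and 12 of 78 (median -0.11) within the 9. Without cypermethrin non-stressed replicate 3 the count was 56 of 79 and without replicate 4 it was 18 of 79, and it was 30 of 79 without the Xist-positive library. Rps29 had the smallest p, with a difference of -0.26 ± 0.13, then Rps3a1 with 0.28 ± 0.16 and Rpl7l1 with 0.58 ± 0.36 (edgeR, adjusted p = 0.96 each). With 1 library left out the differences were -0.15 for Rps29 (without cypermethrin non-stressed replicate 3), 0.16 for Rps3a1 (without vehicle stressed replicate 2) and 0.36 for Rpl7l1 (without cypermethrin stressed replicate 1). For Rpl7l1 the cypermethrin stressed libraries had 58.9, 15.7, 25.8 and 30.2 CPM and the vehicle stressed libraries 8.09, 26.6, 39.5 and 25.9 CPM, which overlap both non-stressed groups.

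Genes that build ribosomes or work beside them were read from the same fits, and 0 of them were called in any of the 6 comparisons by edgeR. The Xist-positive library is part of these fits, and the lists were not read from a fit without it. Among 50 assembly factors of the 40S subunit, 8 had an unadjusted p under 0.05 with stress averaged over cypermethrin, all lower (of all genes, 2.44% were higher and 2.69% lower at that p), with a median of -0.03. Esf1 and Utp20, which act in pre-rRNA processing, had -1.10 ± 0.34 and -0.98 ± 0.35 (edgeR, adjusted p = 0.96 each). Among 50 factors of the 60S subunit, 2 were higher and 1 lower at that p, with a median of -0.12, led by Nop16 (-1.42 ± 0.52) and Bop1 (0.83 ± 0.37). In the RNA polymerase I list 1 of 32 was higher and 4 were lower, with a median of 0.05. The lowest p were those of Tbp, a general initiation factor, with -1.34 ± 0.37 and Taf1b, of its polymerase I complex, with -0.60 ± 0.23 (edgeR, adjusted p = 0.96 each). Of 37 mTORC1 pathway genes 2 were higher, Akt1 (0.51 ± 0.24) and Rps6ka1 (1.18 ± 0.57). Elongation and termination factors had 1 lower of 21, led by Btf3 (-0.34 ± 0.16) and Tpt1 (-0.18 ± 0.10). Initiation factors had 0 of 40 past an unadjusted p of 0.05, and mitochondrial ribosomal protein genes 1 of 78, higher, led by Mrpl12 (0.68 ± 0.31) and Mrpl35 (0.75 ± 0.40).

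With cypermethrin averaged over stress, 2 of 40 initiation factors were higher at an unadjusted p under 0.05 (of all genes, 2.36% were higher and 2.23% lower at that p), with a median of 0.05. These were Eif1ax, which helps to scan for the start codon, with 0.83 ± 0.28 and the helicase Eif4a1 with 0.42 ± 0.18 (edgeR, adjusted p = 0.981 each). In the RNA polymerase I list 1 was higher and 2 lower, led by Rrn3 (-0.86 ± 0.28), which brings the polymerase to its promoter, and Taf1c (-2.64 ± 0.87). The 40S assembly list had 1 higher, Nol11 (0.63 ± 0.25), followed by Utp20 (0.67 ± 0.35), and the 60S list 1 higher and 3 lower, led by Noc2l (-0.96 ± 0.37) and Pes1 (0.76 ± 0.33). The mTORC1 list had 1 lower, Eif4ebp2 (-0.40 ± 0.17), followed by Larp1 (-0.38 ± 0.19), which binds TOP tracts. Elongation and termination factors had 0 of 21. The mitochondrial ribosomal protein genes had 1 higher of 78, Mrpl18 (0.90 ± 0.36), followed by Mrps31 (0.95 ± 0.50), with a median of 0.14.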

How the data were processed

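RNA of laser-captured GAD67-GFP+ cells was sequenced from 16 embryos. The authors deposited a single table of counts, whole numbers of reads for each gene symbol. The submitters' processing notes name the aligner STAR 2.5 and the build mm10. How reads were assigned to genes, with which annotation, with or without strand, and what was done with reads of several matches is not given in the sources used here. Groups follow the exposure labels, and each replicate is an embryo of its own litter. Replicate numbers are in accession order.

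A quasi-likelihood model was fitted to the deposited counts in edgeR 4.0.16 (R 4.3.3), with all 16 libraries and a mean for each group, after filterByExpr with a count minimum of 10 had left 13224 genes. TMM scaled the libraries and dispersions were robust, with 12 residual and 15.1 prior degrees of freedom. A call needs a p under 0.05 after Benjamini-Hochberg adjustment over all genes tested. Standard errors come from the F statistic. DESeq2 1.42.0, other scalings, no filter, the library code, and single libraries left out were alternatives. The fit was tested on simulated counts. Lengths are of the shortest CCDS-tagged GENCODE vM21 transcript.

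Members and gene lists were chosen with earlier results of these data known. Members named are the 3 with the smallest p per comparison, the 5 highest and 5 lowest per kb, a set fixed by role and every untested one. Rpl12 and Rpl14 were added after their values were seen. Pathway lists are described for the 2 averaged comparisons. The result of 1 further list is not reported here. No test of a list was made.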

Additional observations from a re-analysis of the deposited data

Results flagged for a closer look

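Within groups of 4 libraries, 39 named ribosomal protein genes and 3 summed quantities were examined, 158 sets of 4 values that were not all equal. In 12 of them, all of single genes, 1 value lay farther from the other 3 than the critical value of Dixon's test allows. For independent sets of normal values, chance flags about 1 in 20. A group with counts in a single library is flagged by construction, and the members moved together across libraries. The 12 are therefore not set against that rate. Rps4l had 63.24 CPM in cypermethrin non-stressed replicate 3, against 2.34 to 5.55 CPM in the rest of its group. Rpl38 had 735.3 CPM in the Xist-positive library (vehicle stressed replicate 1), against 361 to 417 CPM, and Rpl11 had 525 CPM in vehicle stressed replicate 3, against 560 to 567 CPM.

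In the cypermethrin stressed group, Rpl7 had 721.3 CPM in replicate 2 (584 to 607 in the others), Rpl22 had 382.5 CPM in replicate 1 (276 to 279) and Rpl39 had 690 CPM in replicate 3 (762 to 773). In the vehicle non-stressed group Rpl39 had 505.4 CPM in replicate 1 (793 to 843). The other values are of genes with few counts. Rpl39l had 4.63 CPM in vehicle stressed replicate 3, 3.46 CPM in cypermethrin stressed replicate 2 and 7.746 CPM in vehicle non-stressed replicate 2, and was at most 0.252 CPM in the rest. Rpl3l had 0.9429 CPM in vehicle stressed replicate 4 and Rps27 0.2523 CPM in vehicle non-stressed replicate 3, which is 1 count, with the other 3 libraries of each group at 0.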

How the results depend on the processing

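No member was called by edgeR or DESeq2 in any comparison or alternative. Leaving out 1 library at a time, the median log2 difference of the members ran from -0.0095 to 0.24 for cypermethrin alone, from -0.025 to 0.061 for stress alone, from 0.0017 to 0.14 for both exposures, from -0.14 to 0.067 for the interaction, from 0.015 to 0.14 for cypermethrin averaged over stress and from -0.077 to 0.053 for stress averaged over cypermethrin. The number of members called was 0 throughout. The share of counts ran from 3.19% to 3.73% in cypermethrin non-stressed, 3.07% to 3.23% in vehicle stressed, 3.37% to 3.57% in cypermethrin stressed and 3.23% to 3.43% in vehicle non-stressed libraries. The median interaction was 0.25 within the 7 libraries of one code and -0.25 within the 9 of the other, and Rplp2 had an interaction of -0.0015 within the 9. The cause was not tested. Where a code leaves 1 library in a group, that library is assumed to vary like the others. Leaving out cypermethrin non-stressed replicates 3 and 4 together, chosen after seeing the data, gave 61 of 79 members higher for cypermethrin alone (median 0.13) and 61 of 79 averaged over stress (median 0.09). No paired analysis was possible because the labels give no replicate numbers. The median standard error of the members was 0.20 for single groups, which is the error of a single gene and not of the median difference. With 4 libraries a group, a missed threshold does not show that levels were equal.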
